A study of Mus musculus with 10 samples.

Results

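The *Cyp2d* and *Cyp2j* genes encode cytochrome P450 enzymes that are not classed among the targets of the xenobiotic receptors CAR and PXR. The list held 10 genes, *Cyp2d9*, *Cyp2d10*, *Cyp2d11*, *Cyp2d12*, *Cyp2d13*, *Cyp2d22*, *Cyp2d26*, *Cyp2d40*, *Cyp2j5* and *Cyp2j6*, chosen by family name and taken where the count table listed them. Of these, 9 were among the 16647 genes of the table, 7 of the *Cyp2d* and 2 of the *Cyp2j* family, and *Cyp2d13*, a transcribed pseudogene in RefSeq, was not analysed here. Another 5 genes of the families were in the table, *Cyp2d34*, *Cyp2j8*, *Cyp2j9*, *Cyp2j11* and *Cyp2j13*, and are described beside the listed ones.

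Liver RNA came from male PXR-CAR-CYP3A4/3A7 mice, which carry the human genes of both receptors and of the CYP3A enzymes, so every liver of both groups shares this genotype. The mice were 10 to 15 weeks old at the start, received a high-fat diet (HFD) for 8 weeks and stayed on it during 4 weeks of treatment. MI-883, a CAR agonist and PXR antagonist, was given by gavage at 5 mg/kg 3 times per week to 5 mice, while 5 control mice received the vehicle of DMSO, PEG300 and corn oil on the same days. Each library came from another animal, and the groups were compared to ask whether P450 genes outside the known CAR and PXR targets differed after treatment.

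P450 enzymes of the endoplasmic reticulum oxidise drugs, steroids and fatty acids with electrons supplied by P450 oxidoreductase. The mouse *Cyp2d* cluster is the counterpart of the human *CYP2D6* locus, whose enzyme clears many drugs and is known for its poor response to the classical inducers of liver P450 genes. *CYP2J* enzymes are epoxygenases that turn arachidonic acid into epoxyeicosatrienoic acids, lipid mediators that soluble epoxide hydrolase inactivates.

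Counts per liver lay between 23513665 and 36221514. Depth differed between the groups, with a median of 31734138 counts in control and 24581671 counts in MI-883-treated livers, so raw counts of the groups are not directly comparable. The log2 CPM profiles of any 2 livers correlated with r between 0.975 and 0.991. Levels below are CPM, counts scaled to a common library size by the TMM method of edgeR, with the S.D. over 5 livers of a group. Of the 13219 tested genes, 101 were higher and 35 lower in MI-883-treated livers at an adjusted P under 0.05 (quasi-likelihood test of edgeR). DESeq2 called 291 as higher and 172 as lower. The 136 calls of edgeR became 62 to 208 when 1 liver was left out, and moved by over 1.5 times without any 1 of the control livers or without MI-883 replicate 2 or 5. Over all tested genes the log2 fold change had a median of 0.0045. The induced CAR and PXR targets give a scale for the changes below. *Cyp2b10*, the classical CAR target, averaged 36.5 CPM in the control group and 1019 CPM under MI-883, which is 4.80 ± 0.25 higher on the log2 scale (SE, adjusted P = 3.6e-07, edgeR). *Cyp2c55*, an epoxygenase of the *Cyp2c* family, differed by 3.20 ± 0.12 (SE, adjusted P = 1.0e-08, edgeR).

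The 7 *Cyp2d* genes lie in one cluster on chromosome 15 (GRCm38), and reads of near-identical genes can be left uncounted or given to another copy. The coding sequence of *Cyp2d9* was 93.3% identical to that of *Cyp2d11*, 92.5% to *Cyp2d10* and 92.1% to *Cyp2d12*, and 83.4% to *Cyp2d26* and 81% to *Cyp2d22*. Of the 100-base stretches in the transcripts of *Cyp2d11*, 12.2% also occurred in transcripts of other genes, most of them in *Cyp2d10*. The share was 11.7% for *Cyp2d10*, 7.91% for *Cyp2d9*, partly through the overlapping pseudogene *Gm46501*, and 1.73% for *Cyp2d12*. It was 0.319% for *Cyp2d26* and 0.143% for *Cyp2d22*, and no shared stretch was found for *Cyp2d40* or the *Cyp2j* genes. With stretches as long as a read, 150 bases, the shares were 5.62% for *Cyp2d11*, 4.55% for *Cyp2d10* and 1.71% for *Cyp2d9*. Values of *Cyp2d11*, at a low level beside the abundant *Cyp2d10*, are therefore uncertain. *Cyp2d11* also overlaps the microRNA gene *Mir7684* in RefSeq.

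The likeness within the cluster extends upstream of the genes, and genes with values above and below 0 in the comparison of the groups share it, so 4 of these upstream stretches are shown. They are 100 bases each from the RefSeq promoters of GRCm38.p6, read 5′ to 3′ on the strand of the gene, and end with a run of 9 letters that all 4 share, in capitals. *Cyp2d9* and *Cyp2d11* had the closest upstream sequences, with 93.6% identical bases in the aligned part of 250 bases, against 86.5% for *Cyp2d9* and *Cyp2d10* and 82.8% for *Cyp2d9* and *Cyp2d40*. The aligned parts were 234, 244 and 180 bases long. Only aligned bases count, and *Cyp2d9* still had 79% with *Cyp2j5* over 105 bases and 77.3% with *Cyp2j6* over 110 bases. The value for *Cyp2d40* is thus not far above those for genes of the other family. The stretches are at chr15:82452236-82452335 on the plus strand for *Cyp2d9* and, on the minus strand, at chr15:82407239-82407338 for *Cyp2d10*, chr15:82394079-82394178 for *Cyp2d11* and chr15:82764227-82764326 for *Cyp2d40*.
Cyp2d9: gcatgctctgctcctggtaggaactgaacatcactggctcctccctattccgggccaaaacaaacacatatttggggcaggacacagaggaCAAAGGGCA
Cyp2d10: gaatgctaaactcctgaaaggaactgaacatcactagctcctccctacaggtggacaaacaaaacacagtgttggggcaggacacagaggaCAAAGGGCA
Cyp2d11: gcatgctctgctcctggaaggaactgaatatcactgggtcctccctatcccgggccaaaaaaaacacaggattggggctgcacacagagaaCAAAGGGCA
Cyp2d40: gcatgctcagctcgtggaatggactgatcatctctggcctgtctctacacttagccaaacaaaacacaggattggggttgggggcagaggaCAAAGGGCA

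The run CAAAGGGCA was chosen after these sequences had been seen. It began 50 bases before the start of *Cyp2d9*, 53 before *Cyp2d10*, 65 before *Cyp2d11* and 113 before *Cyp2d40*, counted from the transcript starts of the promoter table, and it was in 4 of the 7 member promoters with an entry, on either strand. RefSeq places the outer end of *Cyp2d10* farther upstream, at 82407253, so there the run lies inside the annotated gene. By the same gene ends, the window of *Cyp2j6* lies wholly, that of *Cyp2d26* mostly and that of *Cyp2j5* partly inside the gene. The counts over the 7 windows therefore mix upstream and gene sequence. Of all 32851 promoters, 0.399% held it within 250 bases. The nuclear receptor half-site AGGTCA was in 14% of all promoters and in 1 member promoter, that of *Cyp2j5*. AGTTCA, in 11.8% of all promoters, and the STAT core TTCNNNGAA, in 7.02%, were in none of the 7, which says only that these letters are not in these windows.

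*Cyp2d9* encodes the testosterone 16α-hydroxylase of male mouse liver, a gene known for its dependence on the male pattern of growth hormone. It was at 1542, 1549, 1782, 1726 and 1627 CPM in the 5 control livers and at 2249, 2354, 2017, 3083 and 2585 CPM in the 5 MI-883-treated livers. Every MI-883-treated liver was above every control liver. The means were 1645 ± 107 and 2457 ± 405 CPM (S.D., n = 5), a 1.49-fold difference with a 95% interval of 1.26 to 1.77. The log2 fold change was 0.58 ± 0.11 (SE, adjusted P = 0.0264, edgeR), and *Cyp2d9* was the only 1 of the 9 listed genes that passed the threshold, against 1.03% of all tested genes. The call was marginal, since it was lost when control replicate 2, 3, 4 or 5 or MI-883 replicate 2 or 5 was left out, with adjusted P up to 0.0844 (edgeR), whereas the log2 fold change stayed between 0.48 and 0.64 in all 10 such fits. DESeq2 gave an adjusted P of 2.4e-05 for *Cyp2d9*, and it called 2 of the 9 genes against 3.5% of all tested genes.

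The other gene called by DESeq2 was *Cyp2d22*, often regarded as the mouse gene closest to *CYP2D6*. Its levels were 304, 328, 305, 296 and 333 CPM in the control livers, and 357, 412, 334, 401 and 380 CPM under MI-883. The groups did not overlap, although the highest control and the lowest MI-883-treated liver lay side by side. This was a log2 fold change of 0.27 ± 0.08 (SE), or a 1.20-fold difference, with adjusted P = 0.129 by edgeR and 0.0159 by DESeq2. *Cyp2d9* and *Cyp2d22* were the 2 listed genes without overlap between the groups, and 3.98% of all tested genes showed none. For each of them an exact permutation test on mean log2 CPM, two-sided, gave P = 0.00794, the smallest value possible with 5 livers against 5. Groups without overlap always give this value, so the test adds nothing to the separation. The same permutation test gave P = 0.0317 for *Cyp2d10* and for *Cyp2d11*, and P = 0.0873 for *Cyp2d40*. For the remaining listed genes its P lay between 0.190 (*Cyp2d12*) and 0.817 (*Cyp2j6*).

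**Figure D1:**
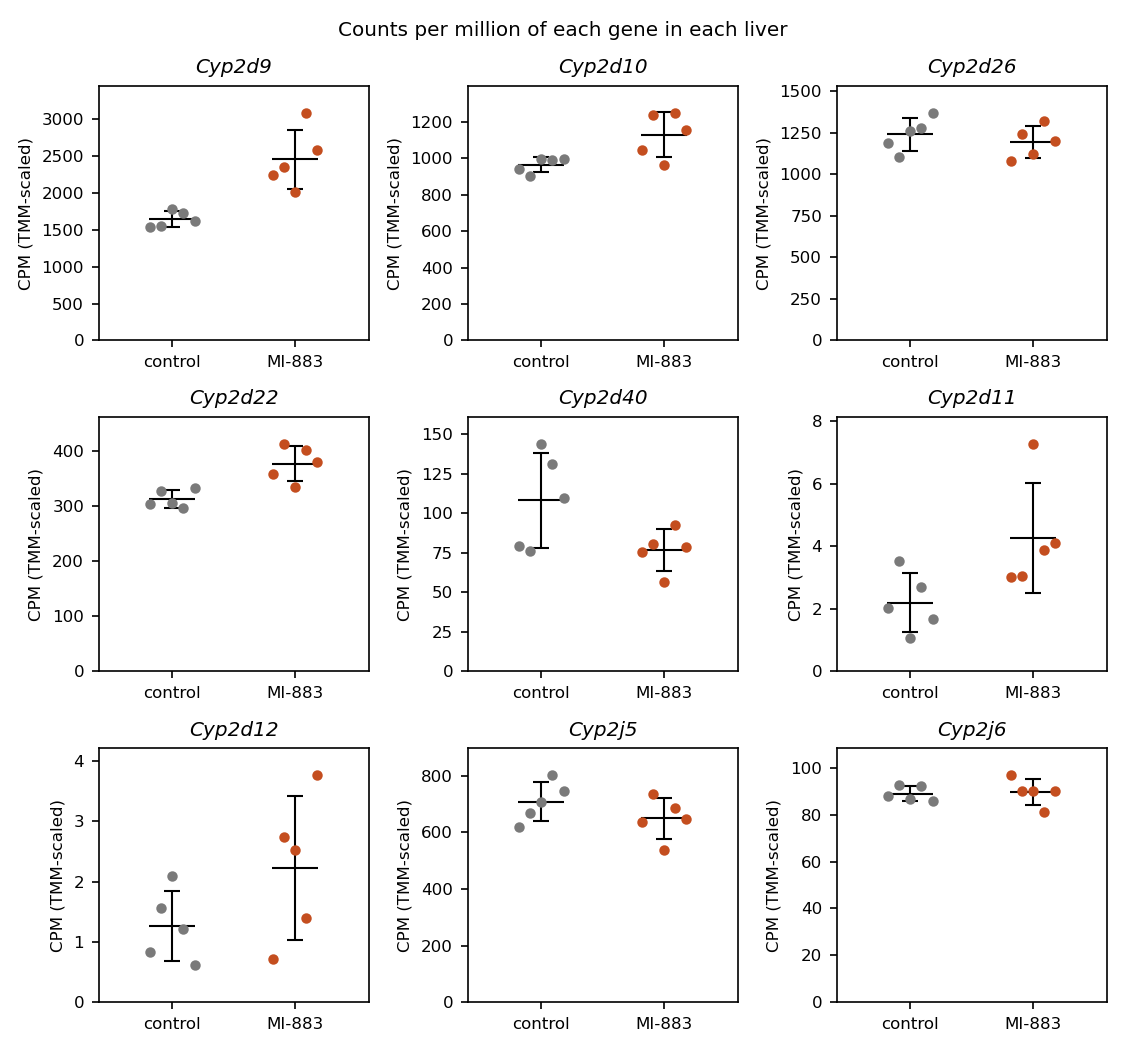
Each panel shows 1 gene, with CPM on a linear axis from 0, a point for each of 5 control and 5 MI-883-treated livers, and bars for the mean and S.D. The groups are apart for *Cyp2d9* and *Cyp2d22* and overlap for the other 7 genes.

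*Cyp2d10* and *Cyp2d26* were the other abundant genes of the cluster. *Cyp2d10* was at 941, 902, 995, 989 and 997 CPM in the control livers, and 1043, 1236, 965, 1247 and 1153 CPM under MI-883. All MI-883-treated livers but replicate 3 were above the control range. Its log2 fold change of 0.23 ± 0.09 (SE) did not pass the threshold (adjusted P = 0.240, edgeR). *Cyp2d26* was at 1187, 1107, 1261, 1280 and 1368 CPM in the control livers, and 1084, 1242, 1121, 1323 and 1204 CPM under MI-883, and the groups overlapped over nearly their whole ranges. Its log2 fold change was -0.05 ± 0.09 (SE, adjusted P = 0.793, edgeR), and the 95% interval from -0.24 to 0.13 holds ratios of MI-883-treated to control livers from 0.846 to 1.10.

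*Cyp2d40* went the other way in sign. Its levels were 79.2, 76.1, 144, 131 and 110 CPM in the control livers, and 75.4, 80.6, 56.4, 92.3 and 78.8 CPM under MI-883. The control livers were widely spread, with an S.D. of 28.0% of their mean, and control replicates 1 and 2 lay within the MI-883-treated range. On the log2 scale the fold change was -0.49 ± 0.18 (SE, 95% interval -0.88 to -0.11), with adjusted P = 0.209 by edgeR and 0.107 by DESeq2, so no difference was called.

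*Cyp2d11* and *Cyp2d12* had the lowest counts of the listed genes. *Cyp2d11* had 73, 113, 26, 93 and 38 counts in the control livers, and 88, 69, 196, 89 and 116 counts under MI-883. As CPM, its mean was 2.20 ± 0.95 in control and 4.26 ± 1.74 in MI-883-treated livers (S.D., n = 5), and MI-883 replicate 3 stood far above the others with 7.25 CPM. The log2 fold change of 0.94 ± 0.31 (SE) had an adjusted P of 0.175 by edgeR and 0.0611 by DESeq2. *Cyp2d12* had 14 to 51 counts per control liver and 21 to 106 counts under MI-883, with overlapping groups and a log2 fold change of 0.82 ± 0.41 (SE, adjusted P = 0.352, edgeR). Its 95% interval, from -0.07 to 1.70, included 0.

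*Cyp2j5*, an arachidonic acid epoxygenase of liver and kidney, was at 619, 669, 707, 801 and 745 CPM in the control livers, and 636, 737, 538, 686 and 648 CPM under MI-883. The groups overlapped, and MI-883 replicate 3 was the lowest liver. The log2 fold change was -0.13 ± 0.10 (SE, adjusted P = 0.568, edgeR), with a 95% interval of -0.34 to 0.09. *Cyp2j6* was the steadiest of the listed genes, with an S.D. of 3.51% of the mean in control livers. It was at 87.7, 92.5, 86.7, 92.1 and 85.8 CPM in the control livers, and 96.7, 90.2, 89.9, 81.2 and 90.2 CPM under MI-883. Its log2 fold change was 0.01 ± 0.06 (SE, adjusted P = 0.95, edgeR), and the 95% interval bounded the ratio of MI-883-treated to control livers between 0.919 and 1.11.

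Of the 9 listed genes, 6 had a log2 fold change above 0 and 3 below, with a median of 0.23 against 0.0045 over all tested genes. Before adjustment, 5 of the 9 had P under 0.05 in edgeR, *Cyp2d9*, *Cyp2d22*, *Cyp2d10* and *Cyp2d11* with higher and *Cyp2d40* with lower values, where 15.6% of all tested genes did. Genes of 1 cluster with shared sequence are not independent of each other. In chromosome order, the 5 listed genes from *Cyp2d22* to *Cyp2d12* had fold changes above 0. Those of *Cyp2d40* and *Cyp2d26* at the other end were below 0. The intervals of *Cyp2d12* and *Cyp2d26* included 0, so the signs of these genes are not determined. Those of *Cyp2d22*, *Cyp2d11*, *Cyp2d10* and *Cyp2d40* did not include 0. They are not adjusted for the number of tested genes, and none of these genes passed in edgeR, so their signs are not settled either. Values of *Cyp2d11* are uncertain because of shared sequence, and only *Cyp2d9* passed the threshold in edgeR. Whether the sign goes with the position in the cluster was not tested. The 5 nearest tested genes on each side of the *Cyp2d* cluster had log2 fold changes between -0.18 and 0.20, and those beside the *Cyp2j* cluster between -0.29 and 0.26. None of these 20 neighbours passed the threshold in edgeR, 1 had an unadjusted P under 0.05 and DESeq2 called 0.

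**Figure D2:**
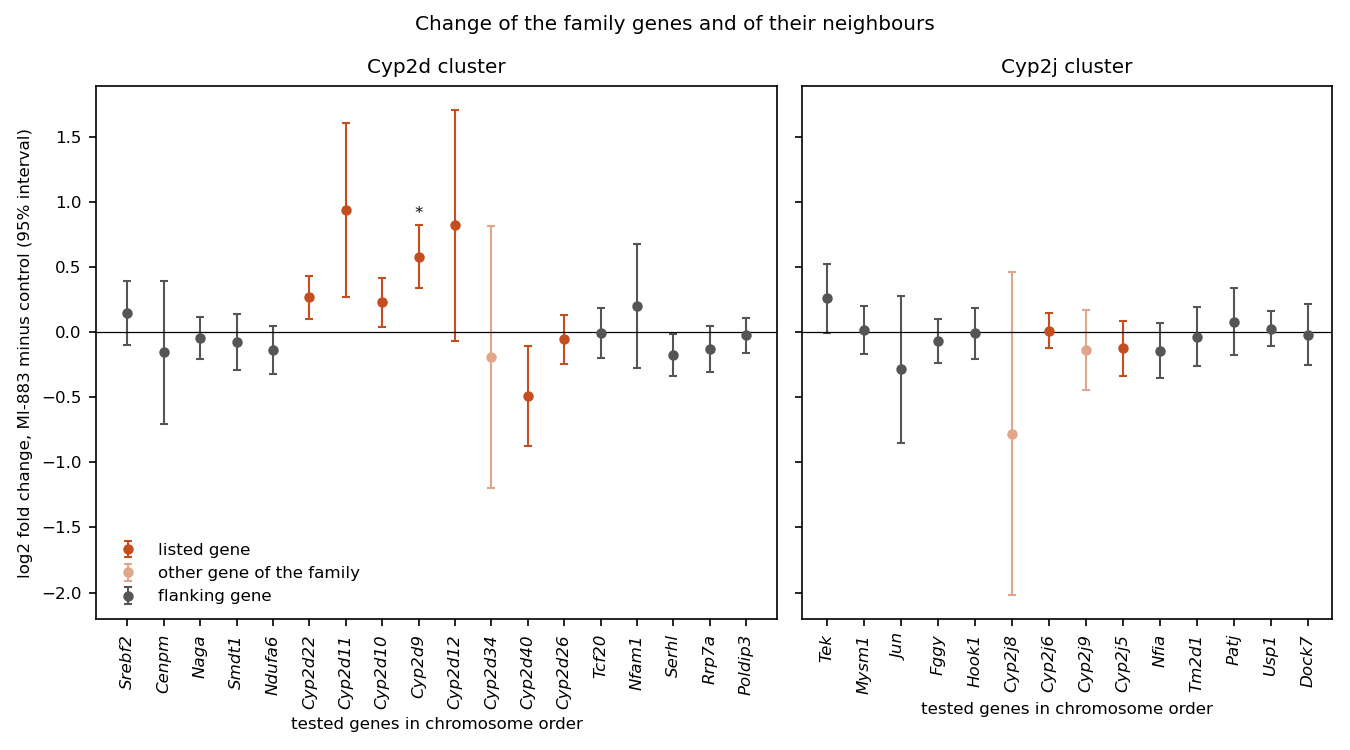
Log2 fold changes of MI-883-treated against control livers with 95% intervals, for tested genes in chromosome order at the *Cyp2d* cluster on the left and the *Cyp2j* cluster on the right. The asterisk marks *Cyp2d9*, which alone passed an adjusted P of 0.05 (edgeR); flanking genes lie between -0.29 and 0.26.

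Of the unlisted genes of both families, 3 were tested and 0 passed the threshold in edgeR or DESeq2 or had an unadjusted P under 0.05. *Cyp2d34* varied widely within both groups, from 4.22 to 18.1 CPM among control livers and from 3.69 to 18.8 CPM under MI-883, with a log2 fold change of -0.19 ± 0.46 (SE, adjusted P = 0.872, edgeR). *Cyp2j9* was at 14.6 ± 1.02 CPM in the control group and 13.2 ± 3.41 CPM under MI-883 (S.D., n = 5; log2 fold change -0.14, adjusted P = 0.669, edgeR). *Cyp2j8* had 1 to 17 counts per liver, with a log2 fold change of -0.78 ± 0.57 (SE, adjusted P = 0.540, edgeR). *Cyp2j11* and *Cyp2j13* had between 0 and 5 counts per liver and were below the minimum of 60 counts, so a difference was not detectable at this depth.

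Levels of different genes are compared per length, as CPM per kilobase of merged exons. In control livers the order was *Cyp2d26* at 692 ± 55.2, *Cyp2d9* at 619 ± 40.2 and *Cyp2d10* at 585 ± 25.5 CPM per kilobase (S.D., n = 5), and the ranges of each of these neighbours overlapped. *Cyp2j5* followed at 302 ± 29.8, *Cyp2d22* at 80.2 ± 4.13, *Cyp2d40* at 59.8 ± 16.7 and *Cyp2j6* at 24.7 ± 0.87 CPM per kilobase, with overlap of *Cyp2d22* and *Cyp2d40* and none between the others. *Cyp2d11* at 1.38 ± 0.60 and *Cyp2d12* at 0.33 ± 0.15 CPM per kilobase came last. Among 13200 tested genes with a known length, *Cyp2d26* ranked 72, *Cyp2d9* 84 and *Cyp2d10* 88 in control livers, whereas *Cyp2d12* ranked 11149. In MI-883-treated livers *Cyp2d9* had the highest level, 925 ± 152 CPM per kilobase, ahead of *Cyp2d10* at 685 ± 74.4 and *Cyp2d26* at 667 ± 53.3. The place of *Cyp2d9* in control livers depends on its gene model, since with the length of its longest transcript its level was 961 CPM per kilobase, above *Cyp2d26* at 730.

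**Figure D3:**
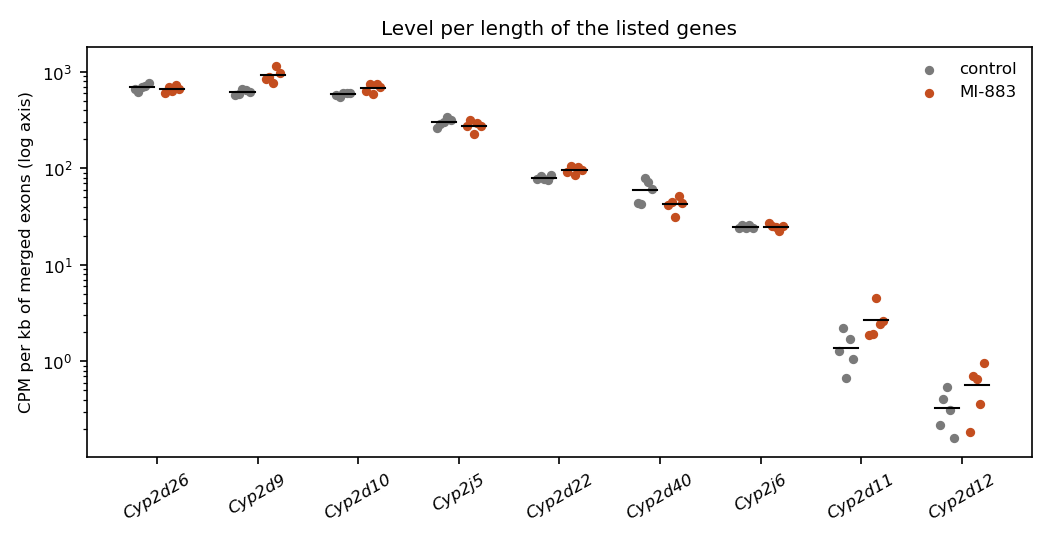
CPM per kilobase of merged exons on a log axis for the 9 listed genes, ordered by the control mean, with a point per liver and a line at the mean of each group. Levels run from 692 for *Cyp2d26* to 0.33 for *Cyp2d12* in control livers.

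A sum over near-identical genes does not depend on which of them received a shared read. It still depends on reads left uncounted or given to a gene outside the sum. Of the 100-base stretches of *Cyp2d9*, 4.67% were shared with listed genes and 2.64% with *Gm46501*, which is not in the sum. The 7 listed *Cyp2d* genes together made up 4057, 3966, 4490, 4427 and 4438 CPM in the control livers, and 4813, 5330, 4503, 6152 and 5409 CPM under MI-883. All MI-883-treated livers were above all control livers, with replicate 3 just above the highest control. The means of 4275 ± 244 and 5241 ± 631 CPM (S.D., n = 5) stood in a ratio of 1.23. Most of this gap came from *Cyp2d9*, already seen to be apart, with a mean of 1645 CPM without and 2457 CPM with treatment. *Cyp2d10*, *Cyp2d22*, *Cyp2d11* and *Cyp2d12* also had higher means, while those of *Cyp2d26* and *Cyp2d40* were lower. Among single tested genes, 3.98% had groups without overlap. The separation of the sum therefore does not show a rise of the whole family. *Cyp2d9* was 38.5% ± 1.18 of this sum in control and 46.7% ± 2.40 in MI-883-treated livers (S.D., n = 5). The share of *Cyp2d26* was 29.0% ± 1.17 and 22.9% ± 1.29, and that of *Cyp2d10* was 22.6% ± 0.41 and 21.6% ± 1.05. The 2 *Cyp2j* genes summed to 797 ± 70.4 CPM in the control group and 739 ± 72.3 CPM under MI-883 (S.D., n = 5), with overlapping groups.

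**Figure D4:**
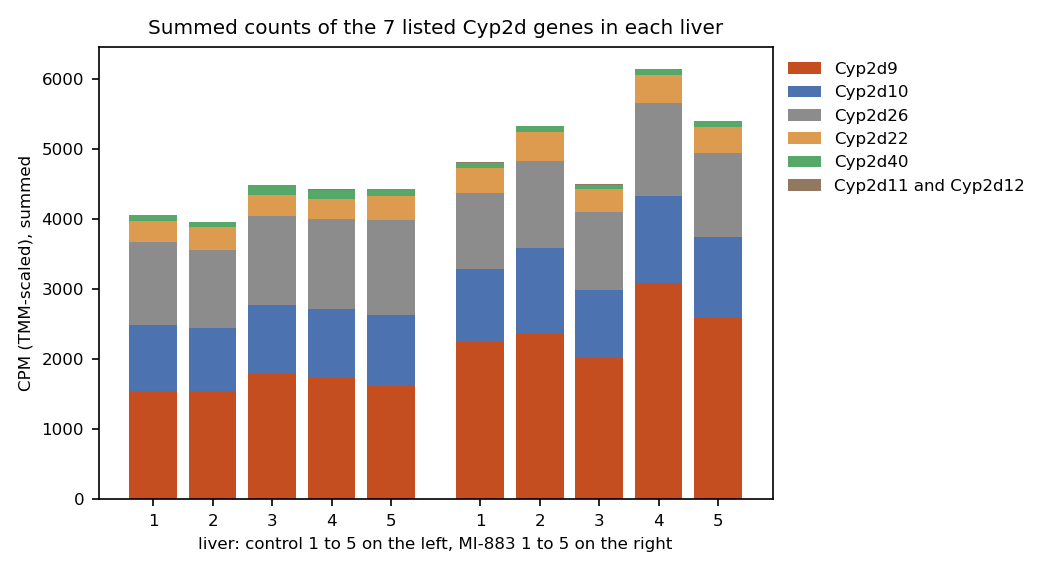
Stacked bars give the summed CPM of the 7 listed *Cyp2d* genes in each liver, with 5 control livers on the left and 5 MI-883-treated livers on the right. The sums run from 3966 to 4490 in control and from 4503 to 6152 in MI-883-treated livers, and *Cyp2d9* is the lowest segment of each bar.

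Ratios within a liver do not depend on the scaling of libraries. They were formed after the values of *Cyp2d9* had been seen, for its counts over those of the 6 other listed genes with at least 50 CPM, and carry no test. The ratio of *Cyp2d9* to *Cyp2d26* was 1.33 ± 0.09 in control and 2.05 ± 0.21 in MI-883-treated livers (S.D., n = 5). The ratio to *Cyp2d10* was 1.71 ± 0.07 and 2.17 ± 0.21, to *Cyp2d40* 16.04 ± 3.65 and 32.2 ± 2.71, and to *Cyp2j5* 2.33 ± 0.17 and 3.79 ± 0.49. These ratios and that to *Cyp2j6* did not overlap between the groups. The ratio to *Cyp2d22* did overlap, from 4.73 to 5.84 in control and from 5.71 to 7.68 in MI-883-treated livers.

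Within groups, the listed genes of at least 50 CPM varied together to different degrees over the 10 livers, which share library and depth for all genes. After group means were removed, Pearson's r between pairs of *Cyp2d* genes ran from 0.22 for *Cyp2d22* and *Cyp2d40* to 0.83 for *Cyp2d10* and *Cyp2d26*, with Spearman's rho from 0.22 to 0.90. *Cyp2j6* had r between -0.74 and -0.11 with the other genes. Without the 2 livers farthest from the median of the first gene of a pair, r between *Cyp2d* pairs ran from -0.18 to 0.86. The livers left out can differ between pairs, and leaving out extremes narrows the range of values. A lower r therefore cannot show that a relation rests on particular livers. Of 11612 other genes with at least 1 CPM, *Sirt7* and *Tmem19* were among the 3 most like *Cyp2d9*, with r of 0.96 and 0.94 and rho of 0.88 and 0.93. With group means kept, r was 0.14 for *Sirt7* and 0.49 for *Tmem19*. *Pon1*, *Tmem183a* and *Cmbl* were most like *Cyp2j5*, each with r of 0.96 or 0.97 and with rho of 0.89, 0.94 and 0.92. With group means kept, their r was 0.91, 0.93 and 0.75. All these genes were picked as the highest of 11612 over 10 livers, and such a choice itself favours high values.

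The lists around these genes were read from the same fit. For the counts in this list and those below, edgeR called 1.03% of all tested genes and DESeq2 3.5%. Unadjusted P was under 0.05 in edgeR for 15.6%, and 3.98% had groups without overlap. Some genes are in more than 1 list, so the counts of different lists are not independent. Of 6 electron partners of P450 enzymes, none passed the threshold in edgeR and the median log2 fold change was 0.22. *Por*, the oxidoreductase that supplies P450 enzymes with electrons, had a log2 fold change of 0.43 ± 0.22 (SE, adjusted P = 0.365, edgeR), and *Cyb5a*, cytochrome b5, of 0.38 ± 0.12 (SE, adjusted P = 0.149 by edgeR and 0.0317 by DESeq2). Before adjustment 3 of the 6 had P under 0.05, and DESeq2 called 3. These were *Cyb5a* and *Pgrmc1* as higher and *Pgrmc2* as lower, and the groups did not overlap for *Pgrmc1* (log2 fold change 0.36 ± 0.09) and *Pgrmc2* (-0.27 ± 0.06, SE), 2 related heme-binding membrane proteins. Of 10 transcription factors known to act on *Cyp2d* genes or human *CYP2D6*, none passed in edgeR, 3 had an unadjusted P under 0.05 and DESeq2 called 1, *Cebpa*, as lower. Log2 fold changes were below 0 for 8 of them, with a median of -0.15. *Hnf4a*, the hepatocyte factor that drives *CYP2D6*, was at 429 CPM in both groups (adjusted P = 0.993, edgeR). *Nr0b2*, which encodes the repressor SHP, had a log2 fold change of -0.24 ± 0.18 (SE, adjusted P = 0.543, edgeR).

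Of 10 genes with male-biased expression in liver under growth hormone, 2 rose and none fell, with a median log2 fold change of 0.39, and 3 had an unadjusted P under 0.05 (edgeR). *Cyp4a12a*, a fatty acid ω-hydroxylase, rose by 0.85 ± 0.18 and *C6*, a complement component, by 0.59 ± 0.12 (log2, SE, adjusted P = 0.0428 and 0.0306, edgeR). *Mup20* was at a log2 fold change of 0.26 and *Hsd3b5* at -0.54 without passing. Of 11 female-biased genes, 7 were tested and none passed in edgeR, while 2 had an unadjusted P under 0.05 and DESeq2 called 1, *Cyp2c40*, as lower. Their median was -0.43. Of 9 genes of growth hormone signalling, none passed in edgeR, 3 had an unadjusted P under 0.05 and DESeq2 called 1, *Igf1*, as lower. The median was -0.09, with *Stat5b* at -0.06 ± 0.06 and *Cish* at -1.05 ± 0.44 (log2, SE).

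In the arachidonic acid pathway, to which *Cyp2j5* and *Cyp2j6* belong, 9 of 46 tested genes rose and none fell in edgeR, against 1.03% called among all tested genes. An unadjusted P under 0.05 was found for 21, against 15.6% of all tested genes, and the log2 fold changes had a median of 0.13. *Cyp2c29*, *Cyp2c37* and *Cyp2c55* are counted again among the CAR and PXR targets, *Cyp4a12a* among the male-biased and *Cyp2c40* among the female-biased genes. DESeq2 called 10 as higher and 3 as lower. The 5 with the smallest P were *Cyp2c* epoxygenases, *Cyp2c55* with a log2 fold change of 3.20, *Cyp2c50* with 1.91, *Cyp2c54* with 2.26, *Cyp2c37* with 1.66 and *Cyp2c29* with 1.02. The 3 that DESeq2 called as lower were also *Cyp2c* genes, *Cyp2c38* with -0.72, *Cyp2c40* with -1.24 and *Cyp2c70* with -0.58, and the groups did not overlap for *Cyp2c40* and *Cyp2c70*. *Ephx2*, the soluble epoxide hydrolase, had -0.06 ± 0.09 (SE, adjusted P = 0.789, edgeR), and *Cyp2e1* had -0.07 ± 0.15 (SE, adjusted P = 0.847, edgeR). Of 10 CAR and PXR targets, 9 rose and none fell, with a median of 2.05, in a list chosen with the results for several of these genes known.

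In bulk liver, fewer cells of a type and less RNA per cell cannot be told apart. Summed over the 6 tested hepatocyte markers, livers held 74059 to 85774 CPM in the control group and 62173 to 74838 CPM under MI-883. Most of this sum was 1 gene, *Alb*, with means of 56571 CPM in the control group and 50506 CPM under MI-883. None of the 6 passed in edgeR, 2 had an unadjusted P under 0.05, and DESeq2 called 1, *Apoa1*, as lower. No marker of cholangiocytes, Kupffer cells, endothelial cells, stellate cells, lymphocytes or erythroid cells passed in edgeR or DESeq2, of 5, 6, 5, 6, 6 and 4 tested, and 7 of these 32 had an unadjusted P under 0.05. Cholangiocyte markers summed to 25.0 to 116 CPM in the control group and 35.1 to 190 CPM under MI-883. That sum mainly follows 1 gene, *Spp1*, at 49.4 ± 37.7 CPM in the control group and 87.8 ± 67.3 CPM under MI-883 (S.D., n = 5, adjusted P = 0.491, edgeR). Of 8 genes of pericentral hepatocytes 1 rose in edgeR, *Cyp1a2*, and DESeq2 called 2 as higher, *Cyp1a2* and *Glul* (adjusted P = 0.0128 for *Glul*, DESeq2). The 8 were split in sign, with 5 log2 fold changes above 0 and 3 below, *Cyp2e1* among the latter. An unadjusted P under 0.05 in edgeR was found for 3 of the 8 pericentral genes. Of 8 periportal genes 1 fell in both tools, *Hal*, by 0.46 ± 0.09 (log2, SE, adjusted P = 0.0264, edgeR), and 7 had log2 fold changes below 0 and 1 above. Before adjustment 4 of the 8 periportal genes had P under 0.05 in edgeR, against 15.6% of all tested genes. Whether these differences have a part in the values of *Cyp2d9* was not tested.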

How the data were processed

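Liver RNA of 5 control and 5 MI-883-treated mice was sequenced with a strand-marking kit. According to the submitters' processing notes and the paper, the authors trimmed reads with fastp 0.23.0, aligned them with STAR to mm10 and counted them with featureCounts. The deposited values are raw counts per Entrez gene, without normalization. The gene annotation and strand setting of the counting are not given in the sources used here. Symbols came from RefSeq (GRCm38.p6; 16644 of 16647 genes matched), and exon lengths, transcripts and coding sequences from GENCODE M21 of the same build.

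Genes with at least 60 counts summed over 10 livers were tested (13219, with 3428 below) by the quasi-likelihood test of edgeR 4.0.16 in R 4.3.3, with TMM scaling, Benjamini-Hochberg adjustment over all tested genes and a threshold of 0.05. DESeq2 1.42.0 was an alternative, without independent filtering. SE is the log2 fold change divided by the square root of F. Library totals ran from 23513665 to 36221514 counts, so 1 count was 0.0279 to 0.0442 CPM. On simulated data of 13147 genes, 82.8% of changes of 1 on the log2 scale were called, with 3.23% false calls. Smaller changes, such as those estimated for all members, were not simulated, so the share of them that would be called is not known. Other alternatives were DESeq2 size factors or total counts as scaling, a minimum of 60 counts in every liver, no count minimum, a block for the replicate number, 1 surrogate variable (sva 3.50.0) and each liver left out in turn.

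The members and gene lists were chosen with earlier results of these data known. Named are all members and the other *Cyp2d* and *Cyp2j* genes of the table, for the most abundant gene of each family the 3 genes most like it, from each list up to 5 genes past the threshold with the smallest P and up to 2 defining genes that did not pass, and *Cyp2b10* and *Cyp2c55* as a scale. *Apoa1*, *Cebpa*, *Cyp2c38*, *Cyp2c40*, *Cyp2c70*, *Glul*, *Igf1*, *Pgrmc1* and *Pgrmc2*, called in their lists by DESeq2 alone, were named after their values were seen. One gene that falls under this rule is not reported here.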

Additional observations from a re-analysis of the deposited data

Results flagged for a closer look

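Within groups of 5 livers, 3 of the 44 sets of values examined held a liver that stood apart by Dixon's criterion, and chance alone gives about 1 in 20 (2.2 of 44). *Cyp2d11* was at 7.25 CPM in MI-883 replicate 3, against 4.11 CPM in the next highest liver of the group. *Cyp2j11* was at 0.0409 CPM in control replicate 3, which is 1 count, where the other control livers had 0. It was at 0.221 CPM in MI-883 replicate 2, which is 5 counts, against 0.037 CPM in the next liver.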

How the results depend on the processing

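The log2 fold change of *Cyp2d9* lay between 0.56 and 0.62 under 7 alternatives that kept all livers and passed the threshold in 6 of them. With the replicate number as a block it was 0.57 with an adjusted P of 0.0602 (edgeR), no member passed (0) and 89 genes passed in all. Same-numbered livers correlated over 0.1 in 1 of 5 pairs, replicate 1 with r of 0.36, and 0 control livers were most like their own number. Correlations over 5 pairs cannot show whether equal numbers mark a pairing or a batch, and the sample titles do not say. DESeq2 called 463 genes and 2 members, with *Cyp2d22* at 0.27 (adjusted P = 0.0159, DESeq2), and all 136 genes of edgeR were among the 463. Scaling by total counts moved the median of all genes to 0.05 and gave *Cyp2d22* at 0.31 past the threshold (adjusted P = 0.0370, edgeR), again 2 members. With a surrogate variable 423 genes passed, *Cyp2d9* alone among the members. The cause of these differences was not tested. The other members kept their direction and stayed short of the threshold under these alternatives. With 60 counts in every liver, 7 of the 9 members were tested.

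Leaving out 1 liver at a time gave between 62 and 208 genes and 0 or 1 member past the threshold. The log2 fold changes then lay between 0.48 and 0.64 for *Cyp2d9*, 0.19 and 0.28 for *Cyp2d10*, 0.66 and 1.18 for *Cyp2d11*, 0.54 and 1.05 for *Cyp2d12*, 0.23 and 0.31 for *Cyp2d22*, -0.09 and -0.02 for *Cyp2d26*, -0.59 and -0.37 for *Cyp2d40*, -0.18 and -0.07 for *Cyp2j5*, and -0.017 and 0.045 for *Cyp2j6*, whose sign changed without control replicate 5 (-0.0013) or MI-883 replicate 1 (-0.017). The mean *Cyp2d* sum lay between 4222 and 4353 CPM in control and 5014 and 5426 CPM in MI-883-treated livers, and the *Cyp2j* sum between 773 and 820 and between 717 and 766 CPM. Sums over all family genes and scaling by total counts moved these means by less than the S.D. *Cyp2d11*, *Cyp2d12* and *Cyp2j8* rest on 1 to 196 counts per liver, and what greater depth would change was not tested.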
